A study of Mus musculus with 9 samples.

Results

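The genes described here encode plasma proteins of the complement and coagulation systems, which the liver makes and secretes. The list held 41 genes, 21 of complement and 20 of coagulation, and a gene was measured when the probe annotation gave its symbol alone to a probe set of the array. By this rule 38 genes were measured, 20 of complement and 18 of coagulation, on 39 of the 28815 probe sets. C3 and Cpb2 were not analysed here, and Klkb1, plasma prekallikrein, shared its only probe set with Cyp4v3 and was left out of every count.

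Liver RNA came from 9 female mice of 15 to 16 months on a C57BL/6J background, 1 mouse per array and 3 per group. WTCR mice were wild-type and calorie-restricted for a short term, with intake lowered stepwise. The study gave standard chow as the food of its mice and named the restricted food a CR diet, without stating its composition. Dgat1-/-AL mice lacked Dgat1, an enzyme that makes triglycerides, in every tissue and ate ad libitum. WTAL mice were wild-type, ate ad libitum and served both other groups as the control, so the comparisons with WTAL are not independent of each other.

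Complement is a cascade of proteases and pore-forming proteins that marks and lyses microbes. The classical and lectin pathways start it on antibody or on microbial sugars, the alternative pathway amplifies it, and C5 to C9 assemble the membrane attack complex. Coagulation is a parallel protease cascade that ends in thrombin and fibrin, and hepatocytes secrete most proteins of both systems. Several of these genes, fibrinogen and C9 among them, are known as acute phase genes, which the liver raises in inflammation under interleukin-6 type cytokines and glucocorticoids.

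The values are log2 signals after robust multi-array averaging (RMA), so 1 unit is a doubling of the signal, and levels are not compared between genes. A gene was called when it changed more than 1.3-fold with an unadjusted p under 0.05 in limma. Benjamini-Hochberg adjusted p-values over all 28815 probe sets are given beside the calls. Hepatocyte markers stood at the top of the signal range on all arrays, with Alb between 14.21 and 14.28. Dgat1 itself measured 8.90, 8.76 and 8.56 in WTCR, 6.14, 5.84 and 5.39 in Dgat1-/-AL and 7.86, 5.67 and 8.04 in WTAL. The array labelled WTAL replicate 2 therefore lay within the Dgat1-/-AL range and went against its label, so counts against WTAL are also given without it. Dgat1-/-AL replicate 1 stood apart on the second principal component, at -42.1 against -15.9 to 15.3 for the other 8 arrays, and results that rest on it are given without it too.

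In WTCR livers 8 of the 38 genes were called lower than in WTAL and 0 higher, or 21.1% lower against 3.81% of all probe sets called lower and 4.25% called higher in limma. In all, 9 genes (23.7%) reached an unadjusted p under 0.05 in either direction, against 15.1% of all probe sets, F9 being the one below the fold minimum. All measured members had a mean log2 signal above 6. Among the 13411 probe sets with a mean of at least 6, fitted alone, 876 were called lower. In that fit 3096 reached the unadjusted limma p, a share close to that of the members. Of the 8 genes called lower, 7 belonged to complement, 35.0% of its 20 measured genes: Mbl1, Mbl2, Cfp, C6, C8g, C9 and C4bp. The other was F11, 5.56% of the 18 coagulation genes. The median log2 fold change was -0.36 over complement, -0.10 over coagulation and 0.00 over all probe sets. At an adjusted p under 0.05, which 1.41% of all probe sets met as lower, 4 members were lower: Mbl1, Mbl2, C8g and C9. Without the array labelled WTAL replicate 2, 6 complement genes and 1 coagulation gene were lower, against 4.13% of all probe sets, Cfp being the gene lost. Of the 4 members named at the adjusted p, Mbl1 and Mbl2 then stayed under 0.05 in limma, at 0.031 and 0.049. C9 and C8g did not, at 0.061 and 0.12.

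**Figure D1:**
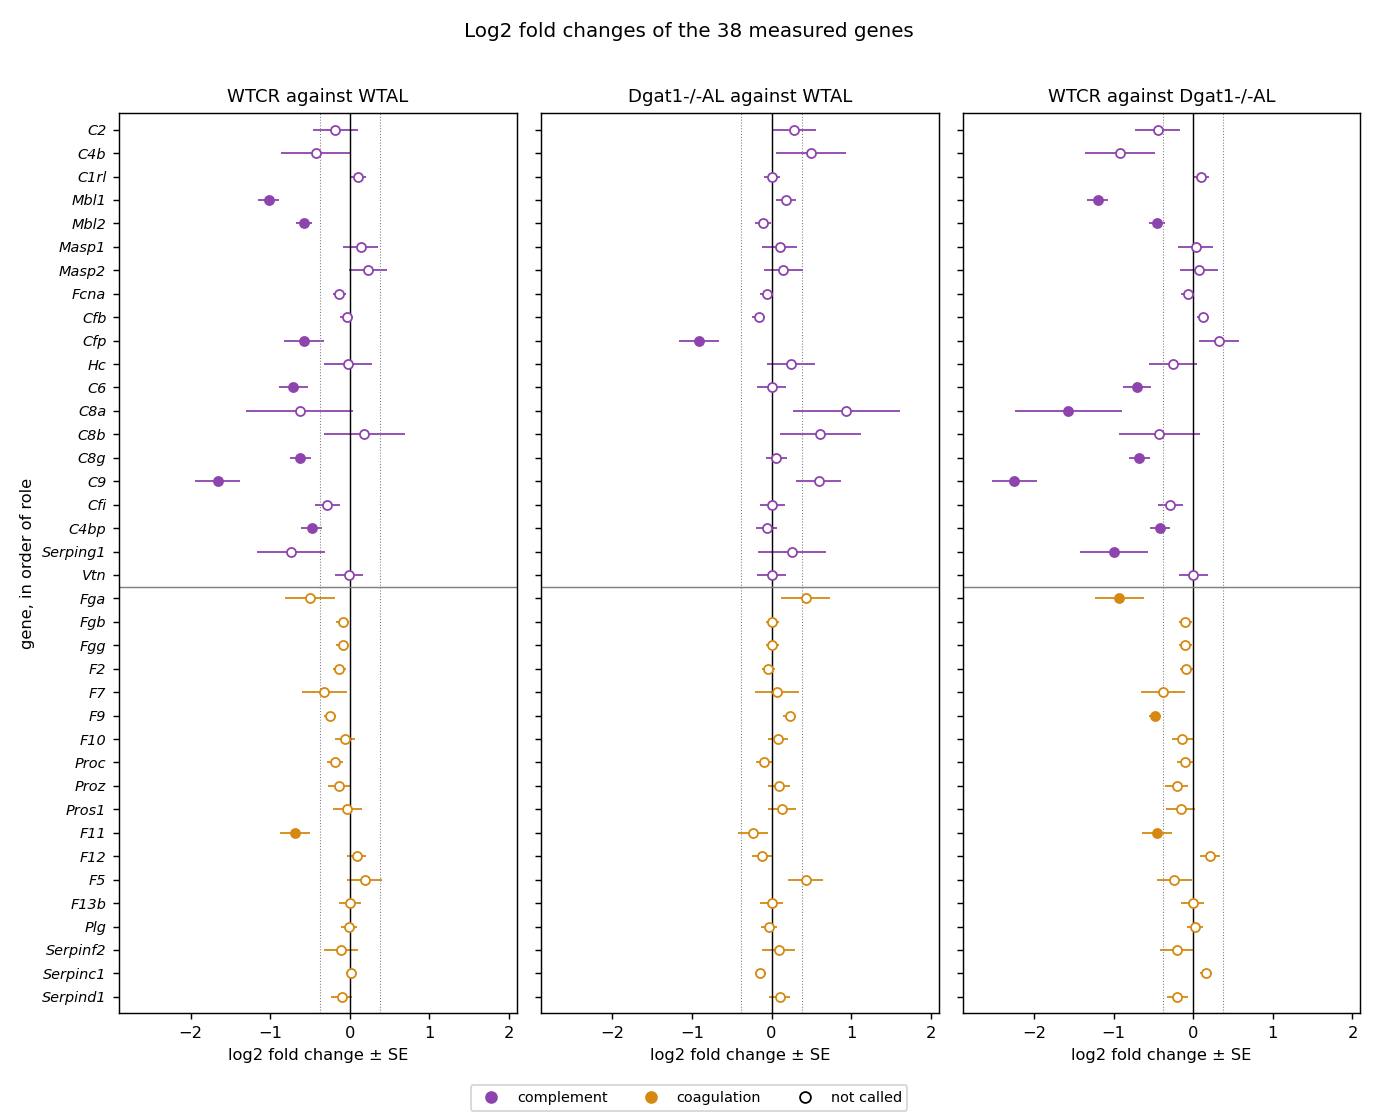
Log2 fold changes with standard errors of the 38 measured genes, by role, for WTCR against WTAL, Dgat1-/-AL against WTAL and WTCR against Dgat1-/-AL. Filled points passed the call and dotted lines mark a 1.3-fold change. Filled points lie left of 0 in all 3 panels, 8, 1 and 11 of them, and complement genes reach -1.66 and -2.25 in the panels with WTCR while the fibrinogen chains Fgb and Fgg lie near 0.

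Among the lectin pathway genes, Mbl1 and Mbl2 encode the mouse mannose-binding lectins A and C, which recognise microbial sugars. Their promoters are shown because both genes were called lower in WTCR against either ad libitum group while they lie on different chromosomes, Mbl1 at chr14:41151206-41151455 and Mbl2 at chr19:30232678-30232927, both on the plus strand of GRCm38.p6. The letters are the 250 bases before the RefSeq start site, and capitals mark the longest run that both promoters share.
Mbl1 promoter: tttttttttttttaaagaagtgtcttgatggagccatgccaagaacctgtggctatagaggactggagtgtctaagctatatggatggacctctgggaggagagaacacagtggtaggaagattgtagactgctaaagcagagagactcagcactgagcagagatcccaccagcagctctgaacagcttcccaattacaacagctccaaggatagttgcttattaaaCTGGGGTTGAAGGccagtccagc
Mbl2 promoter: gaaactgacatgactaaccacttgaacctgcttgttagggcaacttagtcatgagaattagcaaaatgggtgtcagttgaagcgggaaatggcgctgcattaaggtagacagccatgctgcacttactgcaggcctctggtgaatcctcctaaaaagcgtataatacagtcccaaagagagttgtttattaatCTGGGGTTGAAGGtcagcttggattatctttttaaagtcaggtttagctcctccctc
The shared run, CTGGGGTTGAAGG, is 13 bases long and begins 23 bases before the Mbl1 start and 57 bases before the Mbl2 start. It was found in 3 of 32851 mouse promoters of the RefSeq table, 0.00913%, the third being that of Slc25a53. The run was chosen because the Mbl1 and Mbl2 promoters share it, so both are in this count by construction. The low count therefore says nothing about a role of the run in the lower signals, which was not tested.

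Mbl1 had log2 signals of 9.22, 9.43 and 9.36 in WTCR, 10.37, 10.59 and 10.64 in Dgat1-/-AL and 10.61, 10.32 and 10.15 in WTAL. The 3 WTCR livers lay below all 6 ad libitum livers, whose groups overlapped each other. The log2 fold change was -1.02 ± 0.13 (SE, n = 3 per group), 2.03-fold lower in WTCR than in WTAL, with a limma adjusted p of 0.0094. Mbl2 was also lower in WTCR, at a smaller size. It measured 11.68, 11.49 and 11.48 in WTCR, 11.91, 12.17 and 11.96 in Dgat1-/-AL and 12.06, 12.02 and 12.28 in WTAL. Its fold change against WTAL was -0.57 ± 0.10, 1.49-fold lower, with a limma adjusted p of 0.024.

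The proteases that act with these lectins were not called. Masp1 and Masp2, which cleave the next components once a lectin has bound, were at 0.14 ± 0.22 and 0.23 ± 0.24 in WTCR against WTAL. C2 and C4b, the substrates that form the C3 convertase, were at -0.18 ± 0.28 and -0.43 ± 0.44. Fcna, the lectin ficolin-A, and C1rl, a relative of the C1r protease, stayed within 0.13 of 0. None of these 6 genes was called in any of the 3 comparisons in the fit of all 9 arrays without a replicate block, so 2 of the 8 classical and lectin pathway genes accounted for all calls there.

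Of the 2 alternative pathway genes measured, Cfp was called lower in both groups. Cfp encodes properdin, which stabilises the alternative convertase and is known mainly as a product of myeloid cells rather than hepatocytes. It measured 8.58, 8.27 and 8.87 in WTCR, 8.39, 8.27 and 8.11 in Dgat1-/-AL and 8.57, 9.38 and 9.53 in WTAL. All 3 Dgat1-/-AL livers lay below WTAL, while WTCR overlapped WTAL through WTAL replicate 1. The log2 fold change was -0.58 ± 0.25 in WTCR, 1.5-fold lower with a limma adjusted p of 0.31, and -0.91 ± 0.25 in Dgat1-/-AL, 1.87-fold lower with a limma adjusted p of 0.97. The WTCR call was lost in 7 of the 9 fits that each left out 1 array, at -0.88 to -0.40 over all 9, and held only without WTAL replicate 1 or WTCR replicate 3. The Dgat1-/-AL call held in all 9, at -1.20 to -0.72. The study itself listed Cfp among genes lower in both groups of these samples, so its call is not independent of that choice. Cfb, factor B, had -0.04 ± 0.08 in WTCR and -0.16 ± 0.08 in Dgat1-/-AL.

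Of 9 Kupffer cell and macrophage markers measured, 3 were lower in WTCR (Adgre1, Clec4f and Lyz2), 1 was higher (Cd163) and 2 were lower in Dgat1-/-AL (Adgre1 and Clec4f). Adgre1, which encodes F4/80, measured 7.42, 7.12 and 7.80 in WTCR, 7.85, 7.85 and 7.49 in Dgat1-/-AL and 7.95, 8.80 and 8.99 in WTAL, the same WTAL replicate being lowest as for Cfp. Over the whole list the mean signal ranged from 7.61 to 8.34 in WTCR, 7.79 to 8.11 in Dgat1-/-AL and 7.91 to 8.57 in WTAL. Their part in the Cfp result was not tested. In whole-liver RNA, fewer cells of a type and less RNA per cell cannot be told apart.

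**Figure D2:**
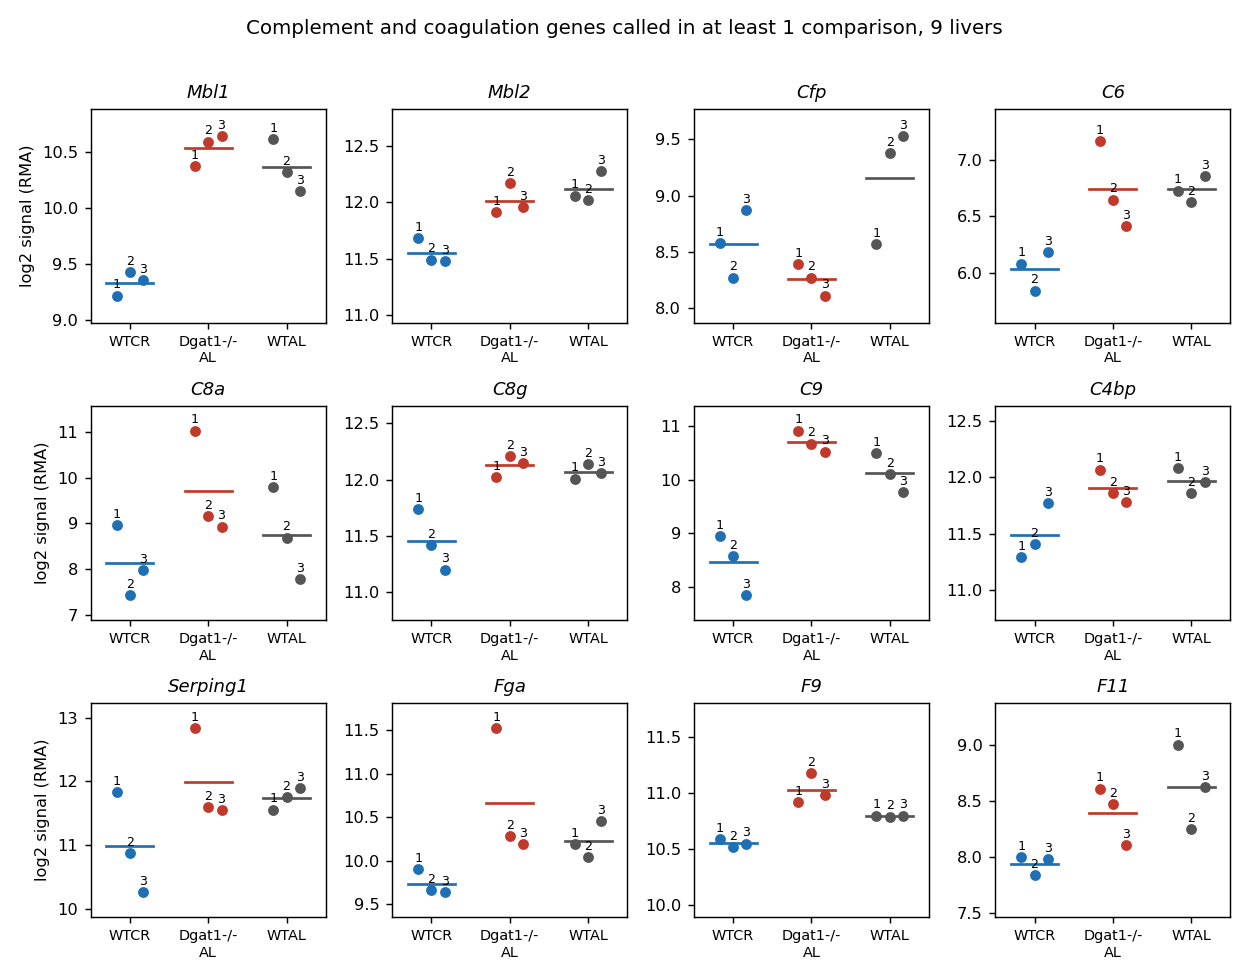
Log2 RMA signal in each of the 9 livers for the 12 members called in at least 1 comparison, with WTCR at the left, Dgat1-/-AL in the middle and WTAL at the right of each panel. Points carry the replicate number and bars are group means. The 3 WTCR livers lie below all 6 others for Mbl1, Mbl2, C6, C8g, C9, C4bp, Fga, F9 and F11, and Dgat1-/-AL replicate 1 is the highest point for C6, C8a, C9, Serping1 and Fga.

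The terminal pathway held the largest change among the members. C9, the protein that polymerises into the pore of the membrane attack complex, is shown with the 250 bases before its start, chr15:6445096-6445345 on the plus strand of GRCm38.p6. Capitals mark letters that match motifs of factors known to act on acute phase or rhythmic liver genes.
C9 promoter: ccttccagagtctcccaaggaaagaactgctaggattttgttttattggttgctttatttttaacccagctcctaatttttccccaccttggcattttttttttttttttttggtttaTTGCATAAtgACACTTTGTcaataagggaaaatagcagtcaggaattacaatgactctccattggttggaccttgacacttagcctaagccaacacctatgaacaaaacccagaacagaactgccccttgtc
TTGCATAA, 132 bases before the start, matches both the C/EBP motif TTGCNNAA and, on the other strand, the D-box TTATGNAA, so these are 1 stretch and not independent matches. ACACTTTGT, 122 bases before the start, matches the glucocorticoid receptor motif ACANNNTGT. These are letter matches and not measured binding.

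C9 had log2 signals of 8.94, 8.58 and 7.85 in WTCR, 10.91, 10.67 and 10.52 in Dgat1-/-AL and 10.49, 10.10 and 9.76 in WTAL. All 3 groups were separate, WTCR lowest and Dgat1-/-AL highest. Against WTAL, C9 was 3.16-fold lower in WTCR, at -1.66 ± 0.28 with a limma adjusted p of 0.021, and the call held in all 9 fits that left out 1 array, at -1.90 to -1.36. In Dgat1-/-AL it was at 0.59 ± 0.28 with an unadjusted limma p of 0.064 and was not called.

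C6 and C8g also fell in WTCR. C6, which binds C5b to begin the complex, measured 6.08, 5.84 and 6.18 in WTCR, 7.17, 6.65 and 6.41 in Dgat1-/-AL and 6.73, 6.63 and 6.86 in WTAL. Its fold change was -0.71 ± 0.18 in WTCR, with a limma adjusted p of 0.083, and 0.00 ± 0.18 in Dgat1-/-AL. C8g, the gamma chain of C8 and a member of the lipocalin family, measured 11.74, 11.42 and 11.20 in WTCR, 12.02, 12.21 and 12.15 in Dgat1-/-AL and 12.01, 12.14 and 12.06 in WTAL. The WTCR livers were below the ad libitum livers for both genes, and C8g was at -0.62 ± 0.13 with a limma adjusted p of 0.039 against WTAL.

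The 3 chains of C8 differed in their spread between mice. C8a and C8b, which encode the alpha and beta chains and have no protein-coding gene between them, varied most among mice of 1 group. C8a measured 8.97, 7.44 and 7.99 in WTCR, 11.02, 9.16 and 8.93 in Dgat1-/-AL and 9.79, 8.69 and 7.79 in WTAL, so WTCR overlapped both other groups. C8b measured 10.71, 10.48 and 10.72 in WTCR, 11.34, 11.06 and 10.80 in Dgat1-/-AL and 11.68, 10.5 and 9.19 in WTAL. The WTAL livers ran from high to low in the same order for both genes, and the SD among WTAL mice was 1.0 for C8a and 1.25 for C8b against 0.07 for C8g. Neither was called in WTCR against WTAL, at -0.63 ± 0.67 for C8a and 0.18 ± 0.51 for C8b. Hc, which encodes C5, was at -0.02 ± 0.30 in WTCR and 0.24 ± 0.30 in Dgat1-/-AL.

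Among 4 regulators, C4bp was called lower in WTCR. C4bp encodes the alpha chain of C4b-binding protein, which limits the classical and lectin convertase. Its signals were 11.29, 11.41 and 11.77 in WTCR, 12.07, 11.86 and 11.78 in Dgat1-/-AL and 12.08, 11.86 and 11.96 in WTAL, with WTCR replicate 3 only 0.01 below the lowest Dgat1-/-AL liver. The fold change against WTAL was -0.48 ± 0.13 with a limma adjusted p of 0.11. Serping1, the C1 inhibitor, measured 11.83, 10.88 and 10.27 in WTCR, 12.84, 11.60 and 11.55 in Dgat1-/-AL and 11.56, 11.76 and 11.89 in WTAL. WTCR replicate 1 lay within the WTAL range and the other 2 below it, and the fold change of -0.74 ± 0.43 was not called. Cfi, the protease factor I, was at -0.28 ± 0.16, and Vtn, vitronectin, which keeps the terminal complex soluble, was at -0.01 ± 0.18.

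In coagulation, fibrinogen is the soluble precursor of fibrin and is built from 3 chains that are encoded side by side. The 250 bases before Fga, chr3:83025903-83026152 on the plus strand of GRCm38.p6, are shown because this chain alone varied widely between arrays. Capitals mark motif matches.
Fga promoter: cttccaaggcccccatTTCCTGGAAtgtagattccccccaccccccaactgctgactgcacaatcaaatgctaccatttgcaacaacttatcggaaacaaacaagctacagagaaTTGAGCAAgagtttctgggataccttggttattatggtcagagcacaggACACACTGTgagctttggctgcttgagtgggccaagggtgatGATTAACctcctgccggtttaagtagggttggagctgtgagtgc
From the far end, TTCCTGGAA matches the STAT motif TTCNNNGAA, TTGAGCAA the C/EBP motif, ACACACTGT the glucocorticoid receptor motif and GATTAAC the HNF1 motif GTTAATN on the other strand, at 234, 135, 86 and 44 bases before the start.

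Fga, the alpha chain, measured 9.90, 9.66 and 9.64 in WTCR, 11.53, 10.28 and 10.19 in Dgat1-/-AL and 10.19, 10.04 and 10.46 in WTAL. The WTCR livers were below all others, and Dgat1-/-AL replicate 1 was more than 1 unit above every other liver. The fold change of -0.50 ± 0.31 in WTCR against WTAL was not called with all 9 arrays, at an unadjusted limma p of 0.15, but was at 0.0031 without Dgat1-/-AL replicate 1, whose spread enters the shared error. A second, dimmer probe set of Fga was 2.35-fold lower in WTCR, at -1.23 ± 0.38 with a limma adjusted p of 0.14. Fgb, the beta chain, and Fgg, the gamma chain, were each at -0.09 ± 0.08 in WTCR and 0.01 ± 0.08 in Dgat1-/-AL. Their mean signals lay between 13.45 and 13.64 where array maxima were 14.73 to 15.16, and how far probes so bright compress a change was not tested.

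F11 was the coagulation gene called lower in WTCR. It encodes factor XI, the protease that carries the contact pathway on to factor IX. F11 measured 8.0, 7.84 and 7.98 in WTCR, 8.61, 8.47 and 8.11 in Dgat1-/-AL and 9.0, 8.25 and 8.62 in WTAL. The WTCR livers were below all others, at -0.69 ± 0.19 and 1.61-fold lower than WTAL, with a limma adjusted p of 0.11 and a call that held in all 9 fits with 1 array left out. F12, the contact factor that activates it, was at 0.09 ± 0.12.

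The vitamin K-dependent proteins moved less. F2, prothrombin, was at -0.13 ± 0.08 in WTCR and -0.04 ± 0.08 in Dgat1-/-AL. F9, which encodes factor IX, measured 10.59, 10.52 and 10.55 in WTCR, 10.92, 11.18 and 10.98 in Dgat1-/-AL and 10.80, 10.79 and 10.80 in WTAL. These 3 groups did not overlap, with WTAL in between. Against WTAL, F9 was at -0.25 ± 0.08 in WTCR livers and at 0.23 ± 0.08 in those of Dgat1-/-AL. These had unadjusted limma p-values of 0.010 and 0.015, and both were under the 1.3-fold minimum. F7, factor VII, which starts the extrinsic pathway with tissue factor, was at -0.32 ± 0.28, and F10, Proc, Proz and Pros1 lay between -0.19 and -0.03 in WTCR. F5, the cofactor of factor X, was at 0.19 ± 0.22 in WTCR and 0.43 ± 0.22 in Dgat1-/-AL, and F13b, Plg, Serpinf2, Serpinc1 and Serpind1, for clot crosslinking, fibrinolysis and the inhibition of plasmin and thrombin, stayed within 0.14 of 0 against WTAL in both groups.

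In Dgat1-/-AL livers 1 of 38 genes, Cfp, was called lower than in WTAL and 0 higher, against 0.760% of all probe sets called lower and 0.465% called higher in limma. At an unadjusted p under 0.05 there were 2 members (5.26%), Cfp and F9, against 4.57% of all probe sets. At an adjusted p under 0.05 no member was lower, and 0.0% of all probe sets were. The median log2 fold change was 0.08 over complement and 0.04 over coagulation, against 0.00 over all probe sets. Without the array labelled WTAL replicate 2 Cfp stayed lower at -0.80, and F11 was lower as well at -0.41 with an unadjusted limma p of 0.042, where 1.28% of all probe sets were lower.

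**Figure D3:**
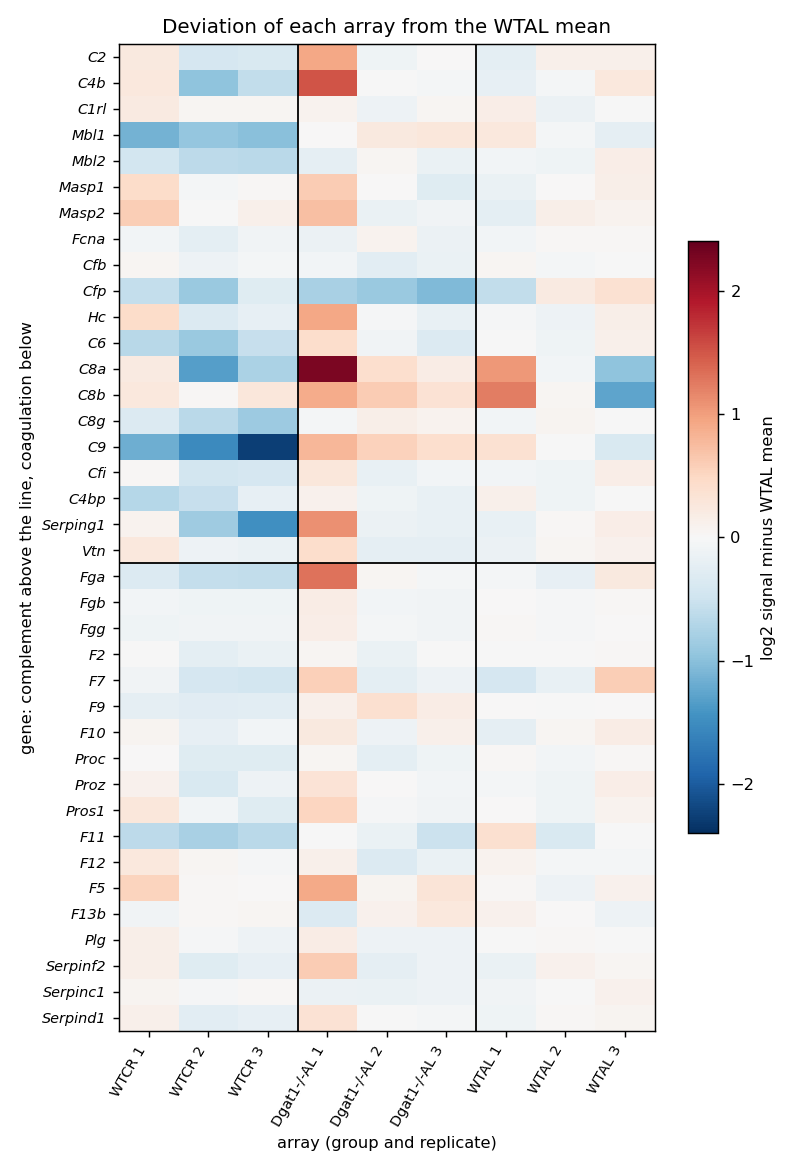
Log2 signal of the 38 measured genes in each of the 9 livers minus the WTAL mean of the gene, with complement above the horizontal line and coagulation below it. Dgat1-/-AL replicate 1 is the red column, highest of the 9 livers for 23 genes, and WTCR replicates 2 and 3 are lowest for 15 and 7 genes.

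Single livers carried much of the spread. Dgat1-/-AL replicate 1 was the highest of the 9 livers for 23 of the 38 genes, 11 of complement and 12 of coagulation. The mean of the complement genes relative to WTAL was -0.10, -0.55 and -0.47 in the WTCR livers and 0.49, -0.01 and -0.09 in the Dgat1-/-AL livers, and that of coagulation was 0.01, -0.22 and -0.19 in WTCR and 0.29, -0.07 and -0.05 in Dgat1-/-AL. In both groups replicate 1 was the highest for both classes. The median SD between mice of complement genes was 0.26 in WTCR, 0.25 in Dgat1-/-AL and 0.15 in WTAL, against 0.10, 0.12 and 0.10 over all probe sets. That of coagulation genes was 0.136, 0.21 and 0.0951. Complement genes thus had a higher median SD than all probe sets in each group, and coagulation genes in WTCR and Dgat1-/-AL. Probe sets of like signal were not compared.

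Dgat1-/-AL replicate 1 also stood out for other acute phase genes. Over 16 such genes the mean relative to WTAL was 0.11, -0.44 and -0.52 in WTCR and 1.54, 0.56 and 0.00 in Dgat1-/-AL. The medians were 0.02, -0.22 and -0.09 in WTCR and 0.93, 0.21 and 0.05 in Dgat1-/-AL, so single genes weighed on the means. Dgat1-/-AL replicate 2, at 0.56 here, was at -0.01 for complement. In WTCR 4 of the 16 acute phase genes were called lower (Saa2, Saa3, Saa4 and Crp), and in Dgat1-/-AL 3 were called higher (Saa1, Saa2 and Saa4). Over all probe sets 3.81% were called lower in WTCR and 0.465% higher in Dgat1-/-AL. Saa2, a serum amyloid A apolipoprotein, measured 7.59, 6.04 and 5.62 in WTCR, 11.78, 10.95 and 8.58 in Dgat1-/-AL and 8.21, 7.88 and 8.72 in WTAL. Crp, C-reactive protein, which in the mouse is only a weak acute phase protein, was at -0.79 ± 0.07 in WTCR with a limma adjusted p of 0.0028 and at 0.27 ± 0.07 in Dgat1-/-AL. The part of such a state in the changes of complement genes was not tested.

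**Figure D4:**
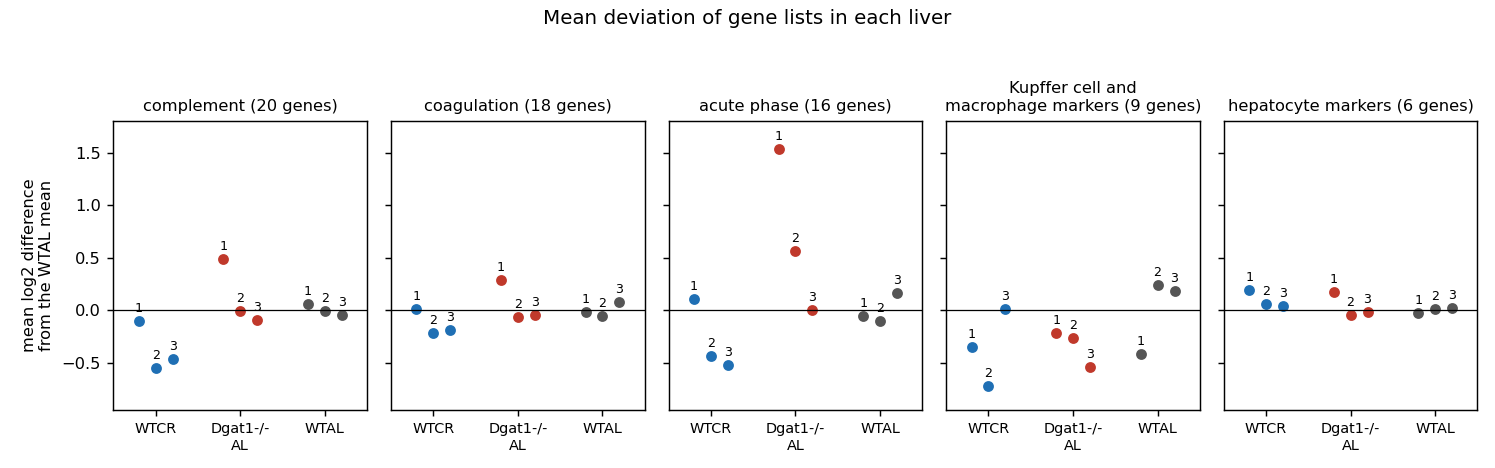
Mean log2 difference from the WTAL mean in each liver over the complement genes, the coagulation genes, the acute phase genes, the Kupffer cell and macrophage markers and the hepatocyte markers, with WTCR at the left, Dgat1-/-AL in the middle and WTAL at the right of each panel and replicate numbers beside the points. Complement reaches -0.55 in WTCR replicate 2 and 0.49 in Dgat1-/-AL replicate 1, the acute phase genes reach 1.54 in that same Dgat1-/-AL liver, and hepatocyte markers stay close to 0.

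Set directly against Dgat1-/-AL, WTCR livers had 11 of 38 genes called lower and 0 higher, or 28.9% lower against 3.93% of all probe sets called lower and 4.66% called higher in limma. At an unadjusted p under 0.05 there were 12 (31.6%), against 15.8% of all probe sets, the last being Serpinc1, antithrombin, at 0.16 ± 0.07 and below the fold minimum. Among the 13411 probe sets with a mean log2 signal of at least 6, fitted alone, 3301 reached that p and 965 were called lower. Complement gave 8 of 20, 40.0% (Mbl1, Mbl2, C6, C8a, C8g, C9, C4bp and Serping1), and coagulation 3 of 18, 16.7% (Fga, F9 and F11). The medians were -0.42 over complement, -0.15 over coagulation and 0.01 over all probe sets. At an adjusted p under 0.05 there were 5 members, Mbl1, Mbl2, C8g, C9 and F9, where 1.29% of all probe sets did as lower. C9 was 4.74-fold lower, at -2.25 ± 0.28 with a limma adjusted p of 0.0087, and Mbl1 2.30-fold lower, at -1.20 ± 0.13 with a limma adjusted p of 0.0056. F9 was 1.39-fold lower, at -0.48 ± 0.08 with a limma adjusted p of 0.017.

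Some of these calls rested on Dgat1-/-AL replicate 1. Without it 5 complement genes (Mbl1, Mbl2, C6, C8g and C9) and 2 coagulation genes (Fga and F9) were lower, against 4.59% of all probe sets. C8a was at -1.57 ± 0.67 with all arrays and at -0.91 without that liver, and Serping1 at -1.0 ± 0.43 and -0.58, both no longer called. Fga kept its call at -0.50, against -0.93 ± 0.31 with all arrays. The C8a call was also lost without WTCR replicate 2 or 3 or the array labelled WTAL replicate 2, and the Serping1 call in 6 of the 9 such fits. C4bp, at -0.42 ± 0.13, lost its call when Dgat1-/-AL replicate 1, WTCR replicate 1 or WTCR replicate 2 was left out, and F11, at -0.46 ± 0.19, in 6 of 9.

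Deviations from the group means correlated at 0.477 between the WTCR and Dgat1-/-AL livers numbered 1. Those numbered 2 and 3 correlated at 0.252 and 0.211, little above the 0.176 and 0.184 of their unlike-numbered pairs. The direct comparison was also fitted with the replicate number as a block on the 6 arrays of these groups. In that fit 10 complement and 4 coagulation genes were lower, against 4.06% of all probe sets. C2, C4b and C8b joined the complement genes and C4bp left them, at an unadjusted limma p of 0.053, while F7 joined the coagulation genes at -0.38 with a p of 0.022. Under this block C8a and Serping1 were lower at unadjusted limma p-values of 0.0014 and 0.00069, with limma adjusted p-values of 0.067 and 0.058. The block was chosen after seeing the data.

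The median change was larger in complement than in coagulation in both comparisons of WTCR livers. The median log2 fold change of complement minus that of coagulation was -0.26 for WTCR against WTAL, 0.04 for Dgat1-/-AL against WTAL and -0.28 for WTCR against Dgat1-/-AL. By liver, the same difference of medians was 0.04, -0.29 and -0.17 in WTCR, 0.25, 0.04 and -0.03 in Dgat1-/-AL and -0.05, 0.00 and 0.05 in WTAL. WTCR replicate 1 lay within the WTAL range, so the gap between the classes was carried by the other 2 WTCR livers. The pooled SD between mice of this difference was 0.131, and no test was made of it.

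Further genes of both systems, which were not members, were lower in WTCR in part. Of 25 further complement genes measured, 8 (32.0%) were called lower in WTCR than in WTAL and 0 higher, against 3.81% and 4.25% of all probe sets. The 8 were Cd55, Cd59b, C1qa, C1s1, C3ar1, C5ar2, Colec10 and Colec11. Cd55 and Cd59b, whose products shield host cells from complement, were at -1.23 ± 0.17 and -0.48 ± 0.09 with limma adjusted p-values of 0.013 and 0.025. In Dgat1-/-AL 2 (8.0%) were lower, against 0.760% of all probe sets. These were C1qa and C1qb, chains of C1q that macrophages make, at -0.61 ± 0.19 and -0.50 ± 0.17. Of the 9 macrophage markers given above, 7 had negative changes there, 2 of them called (Adgre1 and Clec4f). The other 2 were positive and not called, Csf1r at 0.31 ± 0.27 and Cd163 at 0.43 ± 0.26. C1qa is also on the study's own list of shared genes.

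Of 26 further coagulation genes, 4 (15.4%) were lower in WTCR (F8, Tfpi, Tfpi2 and Serpina10) and 0 higher, against 3.81% and 4.25% of all probe sets. In Dgat1-/-AL 0 were called in limma, where 1 reached an unadjusted p under 0.05, as did 4.57% of all probe sets. Serpina10 encodes the protein Z-dependent inhibitor of factor X. It measured 8.69, 8.77 and 8.70 in WTCR, 10.34, 9.61 and 9.62 in Dgat1-/-AL and 9.82, 9.49 and 10.12 in WTAL, with WTCR apart from both other groups, at -1.09 ± 0.21 with a limma adjusted p of 0.033. F8, factor VIII, which liver endothelium is known to make, was at -0.81 ± 0.17, and Tfpi2, an inhibitor of the tissue factor pathway family, at -1.04 ± 0.16. The median over these 26 genes was 0.02 in WTCR, and that over the 25 further complement genes was -0.23.

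Markers of other liver cells also differed. Of all probe sets 3.81% were called lower in WTCR against WTAL. In Dgat1-/-AL against WTAL 0.760% were called lower and 0.465% higher. No hepatocyte marker of 6 was called against WTAL in either group, and the list's mean signal was 13.63 to 13.78 in WTCR, 13.53 to 13.75 in Dgat1-/-AL and 13.56 to 13.60 in WTAL. Cps1 was just under the fold minimum in WTCR, 1.29-fold higher at 0.37 ± 0.10 with an unadjusted limma p of 0.0043. Tat was called higher in WTCR against Dgat1-/-AL, at 0.44 ± 0.16. How far such bright probes compress a change was not tested. Stellate cell markers were lower in WTCR for 4 of 7 (Lrat, Reln, Colec11 and Hgf). Colec11 is the same probe set that was counted above among the further complement genes. The stellate list had a mean signal of 7.34 to 7.49 in WTCR, 7.60 to 7.98 in Dgat1-/-AL and 7.67 to 7.81 in WTAL. B and plasma cell markers were lower for 4 of 5 in WTCR and 1 of 5 in Dgat1-/-AL, with a mean of 4.45 to 4.48 in WTCR, 4.54 to 5.06 in Dgat1-/-AL and 5.12 to 5.75 in WTAL. Sinusoidal endothelium markers were lower for 1 of 7 in WTCR, Clec4g, and T and NK cell markers for 2 of 5, while no cholangiocyte, neutrophil, platelet or erythroid marker was called. In Dgat1-/-AL livers 2 endothelium markers were lower (Lyve1 and Clec4g) and 2 higher (Stab1 and Stab2). Their part in the results of the members was not tested.

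Across all members with a promoter in the RefSeq table, 14 complement genes with 15 promoters and 16 coagulation genes with 16, motifs were counted on both strands in the 300 bases around each start. The HNF1 motif GTTAATN was in 40.0% of the complement promoters and 31.2% of the coagulation promoters, against 7.08% of all 32851 promoters. The STAT motif was in 20% and 25.0%, against 8.30%. The C/EBP motif was in 13.3% and 31.2%, against 10.8%, and the glucocorticoid receptor motif in 6.67% and 25.0%, against 6.85%. The D-box was in 13.3% of the complement promoters, C4bp and C9, and in 0 of the 16 coagulation promoters, against 3.38% of all. The motifs of FOXA (TGTTTAC), HNF4 (CAAAGTC) and IRF (GAAANNGAA) were in at most 1 promoter of either class. Mbl1, Mbl2 and C8g held none of these motifs in their windows, and no match says only that the letters are not there.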

How the data were processed

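Liver total RNA of 9 mice was hybridised to Affymetrix Mouse Gene 1.0 ST arrays, 1 mouse per array and 3 per group. The authors deposited RMA values on the log2 scale, already background-corrected, normalised between arrays and summarised per probe set. RMA compresses changes at the bright and dim ends, and the number of arrays limits the precision. The values were used as deposited, and groups came from the sample labels. Limma 3.58.1 in R 4.3.3 fitted 3 group means to all 28815 probe sets of the 9 arrays, with a spread shared by the groups, 6 residual degrees of freedom and no filter. A call needed a change over 1.3-fold and a p below 0.05 before adjustment, thresholds taken from the study's expression map. Where a gene had several probe sets, the one of highest mean signal was used. The fit was tested on simulated data before use.

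The members and lists were chosen with earlier results of these data known. Named are all members called in any comparison, the member of largest change in each role, the fibrinogen chains and F2, and, of the other lists, called or defining genes. Same-numbered WTCR and Dgat1-/-AL arrays correlated at 0.477, 0.252 and 0.211 in their deviations from the group means. Unlike-numbered pairs of replicates 2 and 3 gave 0.176 and 0.184, so only replicate 1 stood apart. The numbers did not pair WTAL with either group (-0.325 to 0.0454). No label says what a number stands for. Alternatives were fits on 2 groups, an ordinary t statistic, a replicate block, an intensity trend, median centring, a signal filter at 6, the adjusted p as the rule, the dimmer probe set and leaving out arrays. Promoter letters were taken from RefSeq on GRCm38.p6.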

Additional observations from a re-analysis of the deposited data

How the results depend on the processing

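No result for either class or any gene named changed sign at a call. The medians of complement minus coagulation stayed within -0.30 to -0.15, -0.01 to 0.10 and -0.28 to -0.18 for WTCR against WTAL, Dgat1-/-AL against WTAL and WTCR against Dgat1-/-AL when each array was left out in turn. In the same fits complement genes lower in WTCR against WTAL numbered 6 to 8 and coagulation genes 1 to 2. In Dgat1-/-AL against WTAL complement gave 0 to 2 higher and coagulation 0 to 1 higher and 0 to 1 lower, and in WTCR against Dgat1-/-AL complement gave 5 to 9 lower and coagulation 2 to 3. Over these fits 902 to 1269 of the 28815 probe sets were lower in WTCR against WTAL. In WTCR against Dgat1-/-AL 865 to 1328 were lower. In Dgat1-/-AL against WTAL 121 to 309 were higher and 195 to 368 lower. Coagulation genes lower in WTCR against WTAL were 2 in place of 1 with only the 2 groups compared, with the methods' t-test, with the dimmer Fga probe set and with both Dgat1-/-AL replicate 1 and the array labelled WTAL replicate 2 left out, Fga being the gene added. With only the 2 groups, 1 complement gene (C9) was higher in Dgat1-/-AL, where 117 of 28815 probe sets were higher. The methods' t-test gave 5 complement genes lower in WTCR against Dgat1-/-AL, where 731 of 28815 probe sets were lower. Leaving out Dgat1-/-AL replicate 1 and the array labelled WTAL replicate 2, chosen after seeing the data, also gave 5, where 1288 probe sets were lower. F11 was then also lower in Dgat1-/-AL, 1 coagulation gene in place of 0, where 385 probe sets were lower. Under the adjusted p alone complement gave 4 lower in WTCR against WTAL and 4 in WTCR against Dgat1-/-AL, coagulation 0 and 1, and Dgat1-/-AL against WTAL 0 in complement. The replicate block over 9 arrays, with a number that does not pair WTAL, gave 2 complement genes (C8a and C9) and 1 coagulation gene (F5) higher in Dgat1-/-AL and lost Cfp in WTCR (unadjusted limma p of 0.053), and in WTCR against Dgat1-/-AL it added C4b, for 9 complement genes lower. Of the 28815 probe sets it called 143 higher in Dgat1-/-AL against WTAL and 1132 lower in WTCR against Dgat1-/-AL. The block on WTCR and Dgat1-/-AL alone, chosen after seeing the data, gave 10 complement and 4 coagulation genes lower. Median centring, the intensity trend and the signal filter left the counts of members at the fold and unadjusted p rule as they were. The filter raised the share of all probe sets called lower in WTCR against WTAL, from 1098 of 28815 to 876 of 13411. Those lower at an adjusted limma p under 0.05 went from 405 to 460 of the same totals. The members thus stood out less against probe sets of like signal. At the adjusted limma p, Mbl2 in WTCR against Dgat1-/-AL missed 0.05 with centring (0.06) and the trend (0.079), C8g in WTCR against WTAL missed it with the trend (0.055), and C6 in WTCR against Dgat1-/-AL passed with the filter (0.047). With each array left out in turn, the adjusted limma p in WTCR against WTAL reached 0.076 for C9, 0.13 for C8g and 0.095 for Mbl2. For Mbl1 it stayed at or under 0.038. In WTCR against Dgat1-/-AL it reached 0.10 for C8g, 0.16 for Mbl2 and 0.066 for F9, while C9 and Mbl1 stayed under 0.05. The other causes were not tested. With 3 mice per group the precision is limited, and RMA signals near the array maximum may not show small changes.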

Other observations

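The probe set shared by Klkb1, plasma prekallikrein, and Cyp4v3, a fatty acid hydroxylase, measured 11.26, 10.81 and 10.90 in WTCR, 11.39, 11.45 and 11.69 in Dgat1-/-AL and 11.34, 11.38 and 11.33 in WTAL. It was at -0.36 ± 0.12 for WTCR against WTAL, not called, and at -0.52 ± 0.12 for WTCR against Dgat1-/-AL, called lower with a limma adjusted p of 0.063. The 2 genes cannot be told apart on it. Klkb1 has no protein-coding gene between it and F11, which was lower in the same comparison.

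Fibrinogen gave a contrast of size within 1 cluster of genes. Fga, Fgb and Fgg have no other protein-coding gene between them. In Dgat1-/-AL replicate 1 Fga stood at 11.53 where the other Dgat1-/-AL livers had 10.28 and 10.19. Fgb stood at 13.72 where they had 13.47 and 13.45, and Fgg at 13.80 where they had 13.59 and 13.54. How far the brightness of Fgb and Fgg compressed their changes was not tested. Each of these chains was highest of the 9 livers in Dgat1-/-AL replicate 1. That liver also held the highest Lcn2 and Orm2, acute phase genes, at 12.38 and 12.48, against 7.33 to 9.26 and 7.50 to 9.67 in the other 8 livers.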
